A study of Homo sapiens with 3 samples.

Results

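The miR-30 family was described across 3 small RNA libraries of human embryonic kidney cells. Its members were the entries of 6 hairpins, hsa-mir-30a, hsa-mir-30b, hsa-mir-30c-1, hsa-mir-30c-2, hsa-mir-30d and hsa-mir-30e, with mature products written here as miR-30a-5p and so on. Summed by mature name over both arms, these gave 11 mature miRNAs of 2590 listed in the deposited table. Of these, 5 came from 5p arms and 6 from 3p arms, because both miR-30c hairpins yield the same miR-30c-5p. All cells were Flp-In T-REx 293, a derivative of HEK293 that carries the tetracycline repressor, and each library came from 1 culture transduced with a lentiviral vector. The control held the empty vector, which expresses GFP from a doxycycline-inducible CMV promoter, and the miR-1 and miR-122 lines held the same vector with a synthetic hairpin of that miRNA in an intron. Selection lasted 6 days at 1 mg/mL Geneticin, and all 3 lines, the control included, then received 1 ug/mL doxycycline for 7 days. Geneticin was lowered after those 6 days rather than withdrawn. Each condition had a single library, so conditions could not be tested against each other and no difference below has a replicate check. Every interval is a 95% counting interval, and reads without molecular identifiers are not independent molecules, so it covers counting error only.

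MicroRNAs are cut from a hairpin by Drosha and Dicer. One arm is usually kept as the guide in an Argonaute protein, and its seed, bases 2 to 8 from the 5′ end, pairs with target mRNAs. The miR-30 miRNAs are known as abundant in kidney epithelium, including podocytes, and in many other differentiated cells. Their hairpins lie as pairs at separate loci, so that 1 primary transcript can carry both members of a pair.

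Mature sequences were found for 7 members in the RefSeq table (GRCh38). They are shown because the family is defined by its seed, which is in capitals, and because several members differ by single bases. The 5p arms came first:
miR-30a-5p: uGUAAACAuccucgacuggaag
miR-30e-5p: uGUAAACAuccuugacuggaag
miR-30c-5p: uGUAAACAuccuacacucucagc
The 3p arms carried other seeds:
miR-30a-3p: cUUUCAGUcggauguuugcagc
miR-30e-3p: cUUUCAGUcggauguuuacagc
miR-30c-1-3p: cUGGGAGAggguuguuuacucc
miR-30c-2-3p: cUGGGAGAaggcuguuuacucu
The 5p arms shown shared 1 seed and their first 12 bases. The 3p arms shown fell into a pair with the seed UUUCAGU and a pair with the seed UGGGAGA. No sequence was found for the arms of miR-30b and miR-30d, so these statements do not cover them. Counted from 1 at the 5′ end, miR-30a-5p and miR-30e-5p differed by the single substitution C13U, and miR-30a-3p and miR-30e-3p by G18A. The 3p arms of the miR-30c hairpins differed by G9A, U12C and C22U. Each 5p arm shown began with U and each 3p arm shown with C.

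The loci formed 3 pairs in GRCh37. MIR30A (chromosome 6, 72113254 to 72113324) and MIR30C2 (chromosome 6, 72086663 to 72086734) lie on the minus strand within the long non-coding RNA gene LINC00472. MIR30A is intronic there, whereas MIR30C2 overlaps 1 annotated exon. MIR30E (chromosome 1, 41220027 to 41220118) and MIR30C1 (chromosome 1, 41222956 to 41223044) lie on the plus strand in introns of NFYC, which encodes a subunit of the CCAAT-binding factor NF-Y. MIR30D (chromosome 8, 135817119 to 135817188) and MIR30B (chromosome 8, 135812763 to 135812850) lie on the minus strand in introns of an unnamed long non-coding RNA gene. The hairpins of a pair are separated by 26519, 2837 and 4268 bases, in the order 30a/30c-2, 30e/30c-1 and 30d/30b. The primary transcripts themselves were not measured.

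The libraries held 1636834, 2892684 and 2577292 estimated miRNA counts in the control, the miR-1 line and the miR-122 line, in that order throughout. Without the synthetic hairpins these were 1636481, 1791702 and 1947669 endogenous counts, and libraries were scaled on endogenous miRNAs and not on the induced ones. The endogenous set still held miR-3591-5p, whose RefSeq gene overlaps MIR122, with 1, 0 and 1756 counts. Without the miR-3591 entries the family and member ratios were the same to 2 decimals. A count of 0 allowed up to 3 counts, or 1.59 to 1.78 scaled CPM (counts divided by the scaled endogenous library size). Blood-cell miRNAs, which a kidney line should lack, were near the limit: miR-142-5p, miR-142-3p, miR-223-3p, miR-451a and miR-150-5p had 0 to 10 counts in each library. No miRNA that defines HEK293 was checked, and in bulk RNA fewer cells that hold a miRNA cannot be told apart from less of it per cell.

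The first question was how much of the endogenous miRNA pool the family made up. In the control library the 11 members summed to 113459 counts, 6.93% of endogenous counts (Wilson interval 6.89% to 6.97%). The miR-1 library held 114083 counts or 6.37% (6.33% to 6.40%), and the miR-122 library 108676 counts or 5.58% (5.55% to 5.61%). The share was thus highest in the control and lowest in the miR-122 library, with intervals that did not overlap. The 5p arms gave 97.5%, 97.2% and 97.2% of family counts in the 3 libraries. When endogenous miRNAs with a RefSeq sequence, 91.6% of control endogenous counts, were grouped by seed, the seed GUAAACA ranked 7 of 798 seeds in the control. With miR-30b-5p and miR-30d-5p added by name it ranked 5, and the same ranks were found in the other libraries. Entries without a sequence were not added to any other seed, so rank 5 sets a completed family against seeds that may be incomplete. In the control library 5.02% of endogenous counts belonged to 9 let-7 miRNAs, all 5p arms, of a family also spread over many loci. The miR-30 5p arms alone made up 6.76% there.

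Levels within the 5p arms spanned more than an order of magnitude. Each read is a whole small RNA, so levels were not divided by length; ligation efficiency differs between miRNAs and was not calibrated. Library by library, miR-30d-5p had 36114, 38566 and 42267 counts and was the most abundant member. It ranked 11, 13 and 13 among endogenous miRNAs. Next was miR-30a-5p, with 34674, 35305 and 32027 counts, close to miR-30d-5p in the control (1.04 counts of miR-30d-5p per count of miR-30a-5p, interval 1.03 to 1.06) and further below it in the miR-122 library (1.32, 1.30 to 1.34).

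The remaining 5p arms followed in 1 order in all 3 libraries. For miR-30e-5p, 25311, 22405 and 16505 counts were found, with its lowest level in the miR-122 library. For miR-30c-5p the counts were 13203, 13474 and 13747. The least abundant, miR-30b-5p, had 1317, 1092 and 1115 counts and ranked 94, 104 and 105, so that miR-30d-5p exceeded it 27.4-fold to 37.9-fold although both come from 1 locus.

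**Figure D1:**
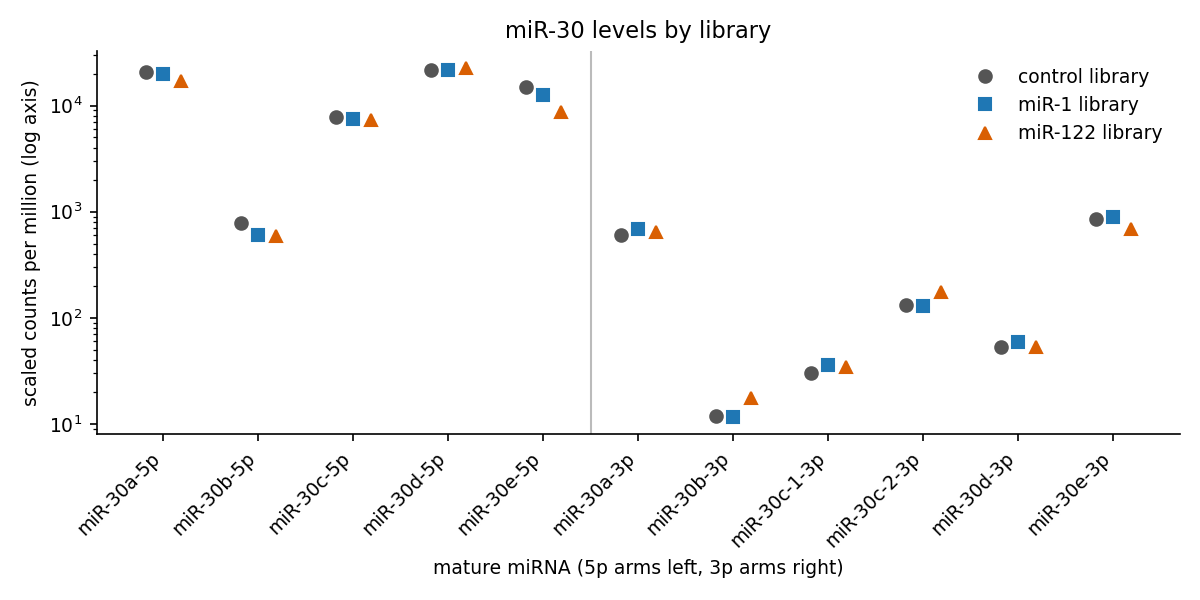
Levels of the 11 miR-30 miRNAs in scaled CPM (log axis), 1 point per library, with 5p arms on the left and 3p arms on the right of the line. The points of miR-30d-5p lie between 21437 and 22471, while those of miR-30e-5p run from 15024 in the control to 8775 in the miR-122 library.

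The 3p arms had 20 to 1588 counts and kept 1 order, and the highest of them overlapped the lowest 5p arm. Of these, miR-30e-3p had 1443, 1588 and 1281 counts and miR-30a-3p had 1015, 1227 and 1206. They carry the seed UUUCAGU, and the intervals of their levels overlapped in the miR-122 library only. Levels of miR-30e-3p were above those of miR-30b-5p in each library, and those of miR-30a-3p were above it in both induced lines. The intervals overlapped that of miR-30b-5p for miR-30e-3p in the control and for miR-30a-3p in the miR-122 library. The 3p arm of miR-30c-2 had 222, 234 and 332 counts. Next came miR-30d-3p with 89, 106 and 99 counts. Below it, miR-30c-1-3p, whose hairpin yields the same 5p arm as miR-30c-2, had 51, 65 and 64, and the intervals of these neighbours overlapped in the miR-122 library only. The lowest member was miR-30b-3p, with 20, 21 and 33 counts.

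Some reads of the family could not be assigned to 1 entry. The rows of miR-30b-5p and both rows of miR-30c-5p held fractions in the control (1316.67, 6594.67 and 6608.67 counts) but summed to 14520, a whole number within rounding. The miR-30c-5p rows of the 2 hairpins differed by only 14, 8 and 6 counts in the 3 libraries, and both hairpins hold the same miR-30c-5p sequence. All rows of miR-30a, miR-30d and miR-30e were whole numbers. How many mismatches the counting allowed was not given in the sources used here, and an exchange of reads between miR-30a-5p and miR-30e-5p, which differ by 1 base, was not tested.

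Composition of the 5p arms differed between the libraries. The share of miR-30e-5p among 5p counts was 22.9%, 20.2% and 15.6%, in library order. That of miR-30d-5p was 32.6%, 34.8% and 40.0%, the reverse order. The share of miR-30a-5p stayed between 30.3% and 31.9%, and that of miR-30c-5p between 11.9% and 13.0%. These shares do not depend on the scaling of the libraries. Per count of miR-30d-5p there were 0.701 counts of miR-30e-5p in the control (interval 0.690 to 0.712), 0.581 with miR-1 (0.571 to 0.591) and 0.390 with miR-122 (0.384 to 0.398).

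**Figure D2:**
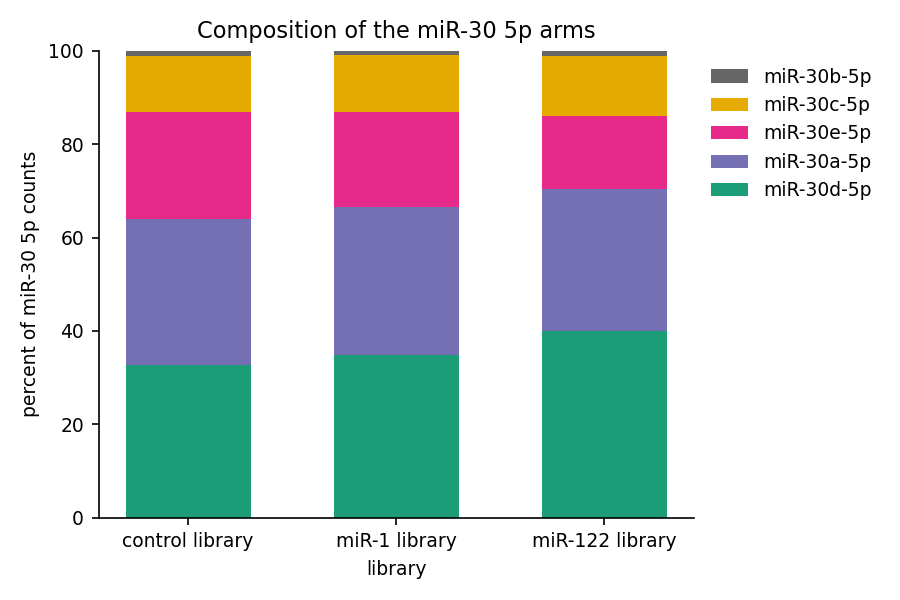
Percent of all miR-30 5p counts contributed by each 5p arm, stacked to 100 percent for each of the 3 libraries. The miR-30e-5p segment narrows from 22.9% in the control to 15.6% in the miR-122 library, while the miR-30d-5p segment widens from 32.6% to 40.0%.

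The next question was how far each member differed between the libraries after scaling. For the summed family the log2 ratio to control was -0.09 in the miR-1 line (interval -0.10 to -0.07) and -0.22 in the miR-122 line (-0.23 to -0.21). Set against miR-122, the ratio of miR-1 was 0.14 (0.12 to 0.15), which turned to -0.10 when libraries were scaled by all miRNA counts, induced miRNAs included. The comparisons with control share the control library and are not independent of each other. Without miR-30e-5p the family ratio in miR-122 to control was -0.09, less far from 0 than with it. Summed alone, the 3p arms had a log2 ratio of 0.10 in miR-1 to control, opposite in sign to that of the family. Directions below are relative to endogenous miRNAs, since scaling by all miRNA counts moved their median to -0.73 (miR-1) and -0.53 (miR-122).

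In miR-1 to control, 0 of 11 members were at least 1.5-fold apart, against 16.7% of all 514 endogenous miRNAs at or above a mean of 10 counts. All 11 members passed that minimum, and 7 of them averaged 1000 counts or more. Among the 108 endogenous miRNAs at that level 0.926% were at least 1.5-fold apart. The counting interval left out a ratio of 1 for 5 members, 4 lower and 1 higher in the miR-1 library, against 34.4% of all endogenous miRNAs. Counting intervals narrow with depth, and a larger part of the members than of all endogenous miRNAs averaged 1000 counts or more. This share is therefore not matched for depth. The furthest of the 5p arms were miR-30b-5p (log2 -0.36, interval -0.48 to -0.25) and miR-30e-5p (log2 -0.27, interval -0.30 to -0.24). The higher member was miR-30a-3p (log2 0.18, interval 0.06 to 0.30). The median log2 ratio of the members was -0.02, and that of all endogenous miRNAs -0.00.

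In miR-122 to control, 1 of 11 members was at least 1.5-fold apart, against 27% of all endogenous miRNAs in either direction and 15.8% in the lower direction. It was miR-30e-5p, 1.71-fold lower in the miR-122 library (log2 -0.78, interval -0.80 to -0.75). Among the 108 abundant miRNAs, 13% were at least 1.5-fold apart and 8.33% at least 1.5-fold lower. Of these abundant miRNAs, 6, miR-30e-5p included, had a ratio as low as its own or lower. Its 3p partner miR-30e-3p was also lower, by less (log2 -0.33, interval -0.44 to -0.22). The other 5p arms of lower ratio were miR-30b-5p (log2 -0.40), miR-30a-5p (log2 -0.27) and miR-30c-5p (log2 -0.10).

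The interval left out a ratio of 1 for 7 of 11 members in this comparison, 5 lower and 2 higher, against 47.1% of all endogenous miRNAs. That share, too, is not matched for depth. The 2 higher members were miR-30c-2-3p (log2 0.42, interval 0.17 to 0.67) and miR-30d-5p (log2 0.07, interval 0.05 to 0.09). The ratio of miR-30d-5p turned to -0.02 when libraries were scaled by endogenous totals, and both turned negative when scaled by all miRNA counts (-0.0754 and -0.428). At 20 and 33 counts the interval of miR-30b-3p ran from -0.28 to 1.44, so a difference was not detectable at this depth. The median of the members was -0.01 and that of all endogenous miRNAs -0.04.

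**Figure D3:**
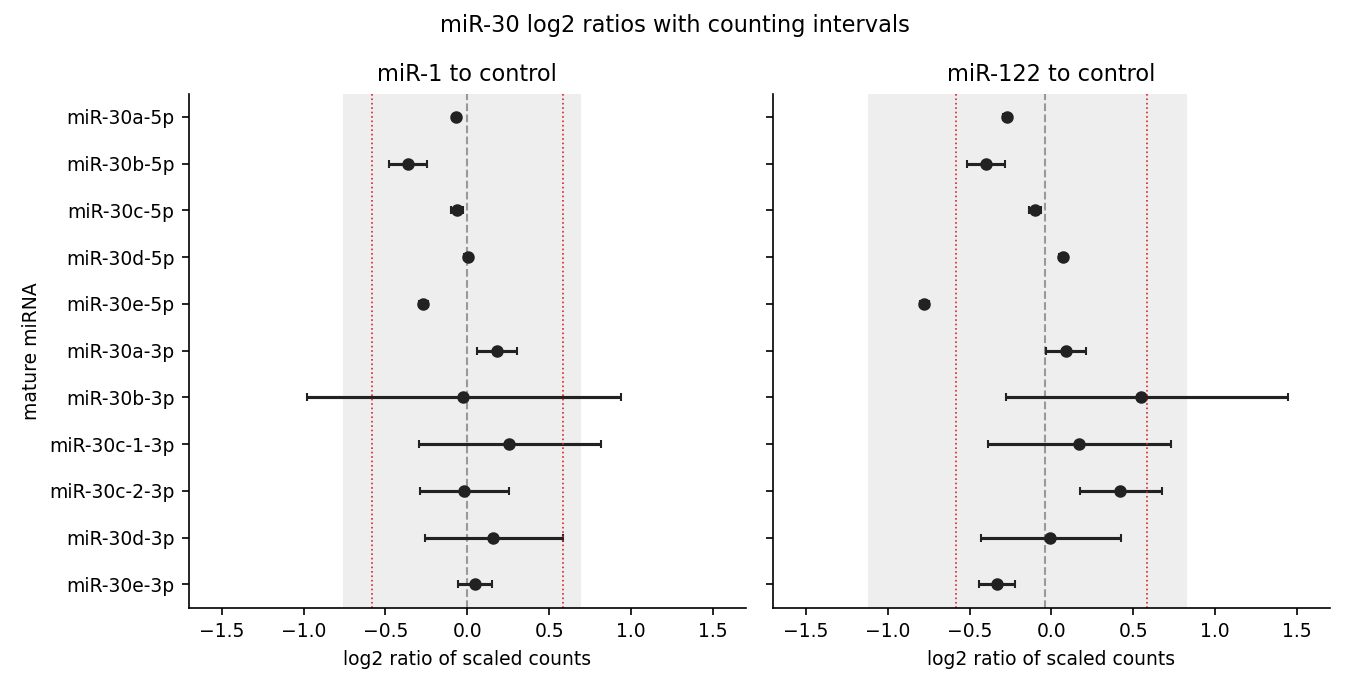
Log2 ratios of scaled counts for the 11 miR-30 miRNAs in miR-1 to control (left) and miR-122 to control (right), with 95% counting intervals as bars. Grey bands run from percentile 5 to 95 of 514 endogenous miRNAs (-0.75 to 0.69 and -1.11 to 0.82), the dashed line is their median, dotted lines mark 1.5-fold, and miR-30e-5p at -0.78 is the single member beyond a dotted line.

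Between the induced lines, 0 of 11 members were at least 1.5-fold apart, against 23.2% of all endogenous miRNAs and 9.26% of the 108 abundant ones. In miR-1 to miR-122, miR-30e-5p had a log2 ratio of 0.51 (interval 0.48 to 0.54) and miR-30e-3p of 0.38 (0.27 to 0.48), so that both arms of this hairpin were lower in the miR-122 library. In the other direction, miR-30c-2-3p had a log2 ratio of -0.44 (interval -0.69 to -0.19). The interval left out a ratio of 1 for 6 members, against 39.3% of all endogenous miRNAs, again not matched for depth.

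Arm choice was then compared between the hairpins. The hairpins of miR-30e and miR-30a, whose arms differ by single bases, are shown with the mature arms in capitals:
miR-30e: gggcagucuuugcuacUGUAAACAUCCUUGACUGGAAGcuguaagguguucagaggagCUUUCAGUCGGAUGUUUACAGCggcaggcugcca
miR-30a: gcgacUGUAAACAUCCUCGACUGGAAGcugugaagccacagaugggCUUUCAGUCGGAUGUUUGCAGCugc
The arms are separated by 20 bases in miR-30e and 19 in miR-30a. The letters UGUUUAC, which are complementary to the seed of the 5p arms, are present in the 3p arms of miR-30e, miR-30c-1 and miR-30c-2 but not in that of miR-30a, where the difference G18A from miR-30e falls.

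The 5p arm made up most counts of all 6 hairpins in all 3 libraries. In the control it gave 99.75% of the counts of miR-30d (interval 99.70% to 99.80%), or 406 counts of the 5p arm per count of the 3p arm. At the other end stood miR-30e with 94.6% (94.3% to 94.9%), or 17.5 per count. Between them lay miR-30b with 98.5% (97.7% to 99.0%) and miR-30a with 97.2% (97.0% to 97.3%). Of 139 other endogenous hairpins with both arms at or above a mean of 10 counts, 3.60% had a ratio as high as miR-30d and 29.5% as high as miR-30e, and their median ratio was 2.20. Hairpins with either arm below that minimum were left out, so one-sided hairpins of low counts are missing from these shares. Counts divided between hairpins entered them as deposited.

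The miR-30c hairpins could be told apart by their 3p arms alone. With miR-30c-5p divided as deposited, the 5p arm made up 99.2% of miR-30c-1 and 96.7% of miR-30c-2 in the control. Since the divided reads are nearly equal by construction, this difference is that of the 3p arms, 51 and 222 counts. Summed, both hairpins had 13203 counts of miR-30c-5p and 273 of the 3p arms, a 5p share of 98.0% (interval 97.7% to 98.2%).

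**Figure D4:**
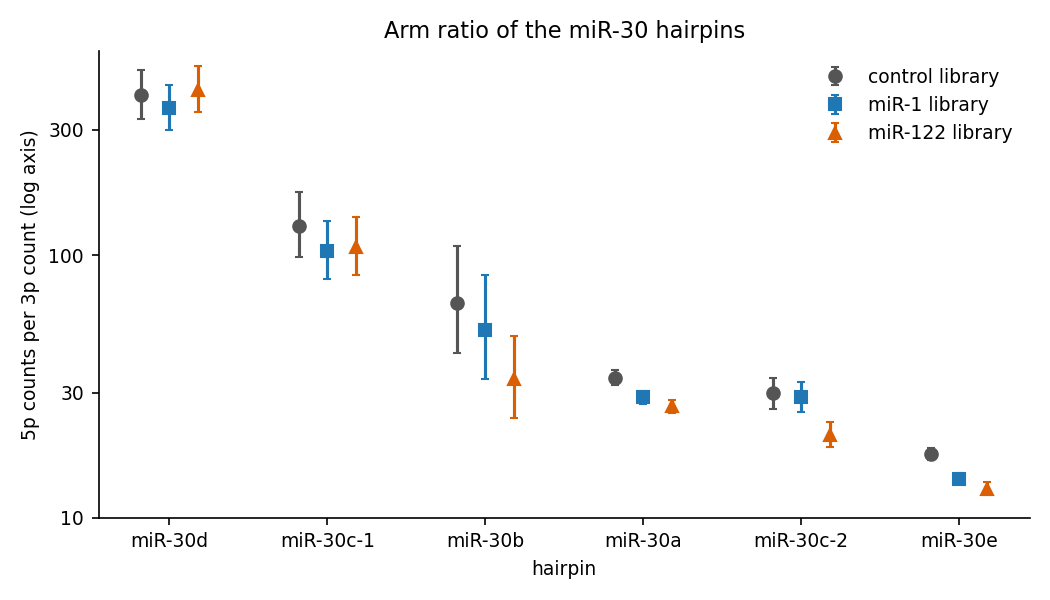
Counts of the 5p arm per count of the 3p arm (log axis) for the 6 miR-30 hairpins, with 95% counting intervals as bars and 1 point per library. The ratio of miR-30e is the lowest in each library and falls from 17.5 in the control to 12.9 in the miR-122 library, while that of miR-30d stays between 364 and 427.

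Arm ratios were lower in the induced lines for most of the hairpins. The number of 5p counts per 3p count of miR-30e was 17.5, 14.1 and 12.9. For miR-30a it was 34.2, 28.8 and 26.6, and for miR-30c-2 29.8, 28.8 and 20.7. In miR-1 to control the ratio was lower for 6 of 6 hairpins, against 46.2% of 145 hairpins, and the interval of the change lay below 0 for 2 of them, miR-30a and miR-30e. In miR-122 to control it was lower for 5 of 6, against 40%, with the interval below 0 for miR-30a, miR-30b, miR-30c-2 and miR-30e. In miR-1 to miR-122 the ratio was lower for 2 of 6, against 55.9%. There the interval lay above 0 for miR-30c-2 and miR-30e. In miR-122 to control the exception, miR-30d, had 406 counts of the 5p arm per 3p count in the control and 427 in the miR-122 library. The miR-30c hairpins share their 5p counts, so the 6 are not separate measurements, and the ratio of each rests on the even division.

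Other hairpins changed as far in varying shares. For miR-30b, with the largest change of the family, the log2 change of the arm ratio in miR-122 to control was -0.95 (interval -1.77 to -0.15). Of 139 other hairpins, 17.99% changed as far or further. The change of miR-30b rests on only 20 and 33 counts of its 3p arm, in the control and the miR-122 library. For miR-30e the change was -0.45 (interval -0.56 to -0.33), with 54.0% of the others as far or further in either direction. For miR-30a it was -0.36 (-0.49 to -0.24), with 58.3% as far or further. The median change of the miR-30 hairpins was -0.28 for miR-1 and -0.40 for miR-122 against control, and that of the others 0.05 and 0.15.

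The genomic pairs were compared as ratios within each library, which no scaling enters. In the pair 30d/30b the 5p ratio was 27.4 in the control (interval 26.0 to 28.99), 35.3 with miR-1 (33.3 to 37.5) and 37.9 with miR-122 (35.7 to 40.3). The 3p arms of the same pair had ratios of 4.45, 5.05 and 3, with intervals that overlapped between libraries. Thus the 5p arms of this locus were further apart than its 3p arms in each library.

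In the pairs that hold a miR-30c hairpin the 5p ratio could not be determined, because miR-30c-5p was divided almost evenly between its hairpins whatever each produced. Only the 3p arms, which are unique to each hairpin, compare the members of these pairs. In 30a/30c-2 the 3p ratio was 4.57 (3.95 to 5.31), 5.24 (4.56 to 6.06) and 3.63 (3.21 to 4.11), lowest in the miR-122 library. The interval of the miR-122 library overlapped that of the control but not that of the miR-1 library. The 5p ratio with the divided counts was 5.25, 5.24 and 4.66.

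In 30e/30c-1 the 3p ratio was 28.3 (21.4 to 38.2), 24.4 (19.1 to 31.8) and 20.0 (15.6 to 26.1), with intervals that overlapped between the libraries. With the divided counts the 5p ratio was 3.84, 3.33 and 2.40, and its distance from the 3p ratio is not a measure of the locus. The partner miR-30c-1-3p had a log2 ratio of 0.17 in miR-122 to control (interval -0.38 to 0.73), so whether it differed in the direction of miR-30e-5p was not detectable at 51 and 64 counts.

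**Figure D5:**
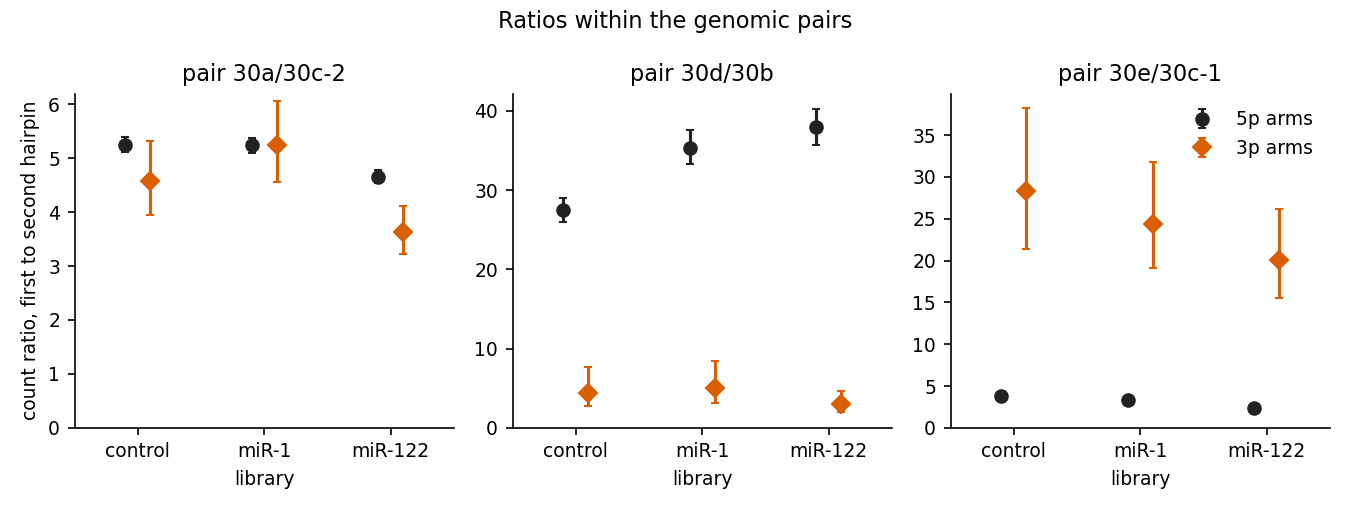
Count ratio of the first to the second hairpin of each genomic pair, for 5p arms (circles) and 3p arms (diamonds) in the 3 libraries, with 95% counting intervals as bars and axes from 0. The 5p ratio of 30d/30b runs from 27.4 to 37.9 with its 3p ratio below it, while the 5p ratios of the other pairs use miR-30c-5p counts that were divided evenly between hairpins.

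The family was set beside 3 other multi-locus families. The summed log2 ratio in miR-122 to control was 0.10 for let-7 (interval 0.09 to 0.12), -0.38 for miR-29 (-0.48 to -0.28) and -0.24 for miR-181 (-0.29 to -0.20), against -0.22 for miR-30. In miR-1 to control these were -0.06, -0.27 and -0.23, against -0.09. The most abundant member gave 39.8% of let-7 counts in the control, 73.3% of miR-29 and 48.2% of miR-181, against 32.6% of the miR-30 5p arms.

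Of 101 other endogenous miRNAs that averaged 1000 counts or more, those nearest to the summed family in their log2 ratios to control were miR-598-3p, miR-140-5p and miR-10a-3p, at Euclidean distances of 0.03, 0.04 and 0.04 on the log2 scale. Their ratios in miR-122 to control were -0.22, -0.25 and -0.21. With 3 libraries this likeness rests on 2 ratios that share the control.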

How the data were processed

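Small RNA libraries were prepared from 1000 ng of total RNA per line. After adapter trimming the authors discarded reads shorter than 18 nt, collapsed duplicates and counted with miRDeep2 on human hairpins of miRBase release 21 plus their synthetic ones. The submitters name hg19, but no genome entered this counting. Estimated counts, deposited for each hairpin and arm, divide a multi-mapping read; RPM values deposited by the authors served as an alternative.

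Counts were summed over hairpins. Of 1351 endogenous miRNAs with any count, 514 with a mean of at least 10 set the TMM scaling (edgeR 4.0.16, R 4.3.3). Scaled CPM values are counts divided by the TMM-scaled endogenous library size. Log2 ratios used a pseudocount of 0.5. Shares carry Wilson intervals and ratios exact conditional binomial intervals (scipy 1.17.1), both of rounded counts; changes of arm ratios carry normal intervals on the log scale. Scaling and the exact ratio intervals were tested on data simulated with counting error only, so spread between libraries was not covered. The Wilson and normal intervals were not simulated. RefSeq hairpins were checked against GRCh37, and 4 of 4 were identical. Named miRNAs were all 11 members and the 3 nearest in pattern; comparison families, members and lists were chosen with earlier results of these data known. Pooled totals were not used.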

Additional observations from a re-analysis of the deposited data

How the results depend on the processing

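No paired analysis was possible because every condition was 1 library, so leaving a library out was also not run. Over 72 results, 351 alternatives were computed; 257 stayed within the counting interval (for counts and percents of miRNAs, within 1.5 times) and 94 moved, of which 40 were of single members. The 1 member past 1.5-fold, miR-30e-5p in miR-122 to control, kept its sign. Some smaller member ratios did not, such as miR-30a-3p in miR-122 to control, from 0.09 to -0.0025 when scaled by endogenous counts. Removing miR-30e-5p and removing the miR-3591 entries were added after the data were seen; the latter moved no recomputed value.

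For the family log2 ratio, values are given for miR-1 against control, for miR-122 against control, and for miR-1 against miR-122. Scaling by all miRNA counts gave -0.81, -0.72 and -0.10, and put the median of endogenous miRNAs at -0.73, -0.53 and -0.22. Relative to that median the family stood at -0.08, -0.18 and 0.13. A scaling shifts all ratios of a comparison alike, so these distances cannot change with it and are no check of it. Scaling by endogenous counts gave -0.12, -0.31 and 0.19, the 3p arms alone 0.10, -0.073 and 0.17, the median member -0.017, -0.0062 and 0.088, and leaving out miR-30e-5p -0.036, -0.095 and 0.058. For the last 2 comparisons, no filter gave -0.23 and 0.16, the highest hairpin -0.24 and 0.15, and leaving out miR-30c-5p -0.24 and 0.15. Scaled by all miRNA counts, 8, 5 and 2 members were at least 1.5-fold apart, as were 69.3% and 49.4% of endogenous miRNAs against control. A limit of 2-fold gave 3.31%, 9.73% and 8.56%, and a mean count of at least 100 gave 6.46%, 16.3% and 12.9%.

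The family share with the highest hairpin was 7.59%, 6.92% and 6.06% in control, miR-1 and miR-122, and of all miRNA counts 3.94% and 4.22% in the induced lines. With both miR-30c hairpins together, the 5p share was 98.0%, 97.8% and 97.2%. With 3p arms, the ratio was 4.57 and 3.63 for 30a/30c-2 in control and miR-122, 4.45, 5.05 and 3 for 30d/30b, and 28.3, 24.4 and 20.0 for 30e/30c-1, which with both arms was 4.03, 3.53 and 2.56. Causes were not tested. Depth limits miR-30b-3p, miR-30c-1-3p and miR-30d-3p, whose intervals held a ratio of 1 in all 3 comparisons.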
